A study of Mus musculus with 27 samples.

Results

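The genes described here are 8 genes of fibrinolysis and coagulation, chosen by symbol: the plasminogen activators Plat and Plau, the receptor Plaur, the clotting initiator F3 and its inhibitor Tfpi, the protein C pathway receptors Thbd and Procr, and the adhesive protein Vwf. All 8 were among the 40129 genes measured, and all 8 passed the filter (mean over mice not below 1 normalized read) that left 27137 genes for testing. Plau passed it only through OIR mice: its mean over the 12 control mice was 0.866 normalized reads (0.315 in nOIR p14 and 1.42 in nOIR p17 mice, where 5 of 6 were at 0).

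Retinas of wildtype C57BL/6 pups (C57BL/6J in the methods of the study) were sequenced at postnatal day 14 (p14) and 17 (p17), 1 library per mouse from 1 or both retinas. In the oxygen-induced retinopathy (OIR) model, pups breathe hyperoxic air from the second postnatal week, which closes young retinal capillaries, and then return to room air, so that the retina is hypoxic around p14 and grows abnormal vessels, retinal neovascularization (RNV), around p17. Controls of the same ages (nOIR) were kept in room air throughout. The OIR groups held 6 mice at p14 and 8 at p17 and the nOIR groups 6 mice at each age, 26 in all. A seventh nOIR p14 mouse, S4, was left out as in the study. Its values lay within the range of the other 6 for 6 of the 8 genes, and above it for F3 (308.4 normalized reads against at most 256.0) and Vwf (636.6 against at most 531.9). All mice were perfused with phosphate-buffered saline before the eyes were removed. Only pups within a set body weight were used in the OIR groups, and each group came from fewer litters than mice. The labels do not name the litter of a mouse, so mice were treated as independent, and p-values may be too small where littermates are alike.

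Fibrinolysis dissolves clots. Plat (tissue plasminogen activator) and Plau (urokinase) cut plasminogen into plasmin, the protease that digests fibrin, and Plaur binds urokinase at the cell surface. Coagulation starts when F3 (tissue factor), a membrane protein of perivascular cells and astrocytes, meets circulating factor VII, and Tfpi blocks that complex on the endothelium. Thbd (thrombomodulin) turns thrombin into an activator of protein C, Procr presents protein C to it, and Vwf, stored in endothelial granules, ties platelets to the exposed vessel wall. Several of these genes are expressed mainly in vascular, glial or immune cells, which are a small share of the retina, and in whole retina fewer cells of a type and less RNA per cell cannot be told apart.

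RefSeq promoters (GRCm38.p6, 250 bases before to 50 bases after the start) were at hand for 4 of the 8 genes, Plaur, F3, Tfpi and Procr. They are shown because these genes were upregulated in OIR p17 retinas. Capitals mark the letters TGANTCA, the core bound by AP-1 factors, which reads the same on both strands and is held by 7.81% of 32851 RefSeq promoters of this length. The Plaur promoter (chr7:24462233-24462532, plus strand) held TGACTCA 69 bases before the start. The Procr promoter (chr2:155750967-155751266, plus strand) held TGACTCA 154 bases before the start. The F3 promoter (chr3:121723287-121723586, plus strand) held TGAATCA 146 bases and TGAGTCA 135 bases before the start. The first of 2 Tfpi starts (chr2:84476710-84477009, minus strand) held no such letters, and neither did the other.
Plaur: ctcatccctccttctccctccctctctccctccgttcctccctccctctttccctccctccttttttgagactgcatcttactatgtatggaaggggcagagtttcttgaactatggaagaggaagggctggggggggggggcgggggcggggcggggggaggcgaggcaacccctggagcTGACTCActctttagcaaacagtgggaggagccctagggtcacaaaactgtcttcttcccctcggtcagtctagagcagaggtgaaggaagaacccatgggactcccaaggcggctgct
Procr: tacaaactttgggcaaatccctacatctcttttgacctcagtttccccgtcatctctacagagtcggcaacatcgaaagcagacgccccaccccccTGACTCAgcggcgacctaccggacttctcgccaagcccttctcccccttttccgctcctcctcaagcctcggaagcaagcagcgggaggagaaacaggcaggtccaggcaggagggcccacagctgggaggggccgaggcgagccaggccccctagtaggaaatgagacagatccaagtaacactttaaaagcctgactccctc
F3: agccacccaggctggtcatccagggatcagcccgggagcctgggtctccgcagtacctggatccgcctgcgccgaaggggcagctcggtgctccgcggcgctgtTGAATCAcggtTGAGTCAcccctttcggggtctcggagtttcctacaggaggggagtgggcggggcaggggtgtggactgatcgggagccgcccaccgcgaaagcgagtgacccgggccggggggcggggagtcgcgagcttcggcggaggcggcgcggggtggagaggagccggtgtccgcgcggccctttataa
Tfpi: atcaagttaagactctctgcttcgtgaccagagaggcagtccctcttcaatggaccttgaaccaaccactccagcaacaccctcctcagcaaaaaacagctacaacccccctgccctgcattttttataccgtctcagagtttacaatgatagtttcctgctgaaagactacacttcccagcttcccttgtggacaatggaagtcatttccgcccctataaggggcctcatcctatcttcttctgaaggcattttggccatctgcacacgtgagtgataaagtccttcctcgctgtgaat

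The hypoxia response cores ACGTG and GCGTG, searched on both strands, are held by 19.6% and 32.4% of these promoters. Of the starts of the 4 genes, the first Tfpi start alone held ACGTG, at a single spot 17 bases after the start that also reads ACGTG on the other strand with an overlap. None held GCGTG or an NF-kappaB-like motif, which 3.24% of promoters hold. A match of letters is a description and not a bound site.

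Values are given as normalized reads, which are reads of a gene divided by 1 size factor per mouse. Reads per mouse ranged from 17029536 to 33593428 with a median of 30182576. Rod genes summed to at least 841209 normalized reads in every mouse, and rods are the most common cell of the mouse retina. Of 5 rod markers, 1 was called lower in OIR mice at p14 and 2 at p17 (sums of 1104910 to 1356130 against 841209 to 1159960 at p14, 1184690 to 1554100 against 987622 to 1546510 at p17). Markers of other cells moved with the groups. Of 8 endothelial markers, 7 were called higher in OIR mice at p17, and at p14 Pecam1 was higher and Cldn5 lower. Their sum ranged from 9218 to 12180 normalized reads in nOIR and from 7382 to 12161 in OIR mice at p14, and from 7381 to 9271 and 10635 to 14079 at p17, and none was at 0 in any group. Kdr, the marker not called at either age, held the largest share of the sum, with means of 4899 and 5688 at p17. All 6 mural markers were higher at p17 (2936 to 3666 against 8703 to 12163) while 3 were lower at p14 (3483 to 4027 against 1497 to 3230). Of 7 microglia and macrophage markers, 1 was higher at p14 (1209 to 1585 against 1278 to 1995) and 5 at p17 (958.3 to 1172 against 1884 to 3060). Of 4 astrocyte markers, 2 and 3 were higher (1027 to 1799 against 2857 to 8809 at p14, 1121 to 1637 against 3060 to 10123 at p17). Gfap held the largest share of this sum, with means of 600 against 5726 at p14 and 485 against 6381 at p17. S100b stood at -0.61 at p14 (limma, adjusted p = 0.0733), with all OIR mice below all controls. Of 6 Müller glia markers, 4 were lower at each age (78721 to 103747 against 62433 to 74538 at p14, 82723 to 100688 against 68054 to 100807 at p17). All 5 red cell markers were higher at p17 (194.7 to 1191 against 1227 to 16980), none at p14. Of 5 neutrophil markers, 2 were tested, and S100a8 was called higher at p17 (limma, adjusted p = 0.0138). S100a8 was at 0 in 4 of 6 nOIR p17 mice, so its fitted value of 2.03 is not read as a fold. The neutrophil sum was low (0 to 5.23 against 0 to 7.06 at p14, 0 to 10.6 against 0 to 24.8 at p17). Mpo was at 0 in 6 of 8 OIR p17 mice, with at most 0.915 normalized reads, and in all mice of the other groups. Levels relative to the endothelial markers are given further on, and the part of the other cells in the results was not tested.

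Plat was the most abundant of the 8 genes per length in every group, at 286 ± 29.5 (SD, n = 6) normalized reads per kilobase of its longest coding transcript in nOIR p14 mice and 943 ± 120 (n = 8) in OIR p17 mice. F3 came next in every group, with 125 ± 12.7 and 227 ± 68.1, though its range met that of Vwf (119 ± 41.5) in OIR p17 mice. Plau was last in every group, at 0.134 ± 0.209 and 3.59 ± 4.53, and overlapped with Plaur in both control groups. Between these ends the order changed: the means of Vwf, Thbd and Tfpi stood above those of Procr and Plaur in both control groups, though Tfpi (21.4 ± 5.14) overlapped with Procr (13.3 ± 3.52) in nOIR p17 mice, and in OIR p14 mice Plaur (43.7 ± 11.1) followed F3, overlapping with Vwf (40.8 ± 19.1). In OIR p17 mice, Procr (76.0 ± 16.1), Tfpi (74.6 ± 12.99), Plaur (67.4 ± 34.0) and Thbd (53.4 ± 14.9) overlapped each with the next, so their order cannot be read beyond the spread. The plot of normalized reads by mouse shows each gene on its own axis.

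**Figure D1:**
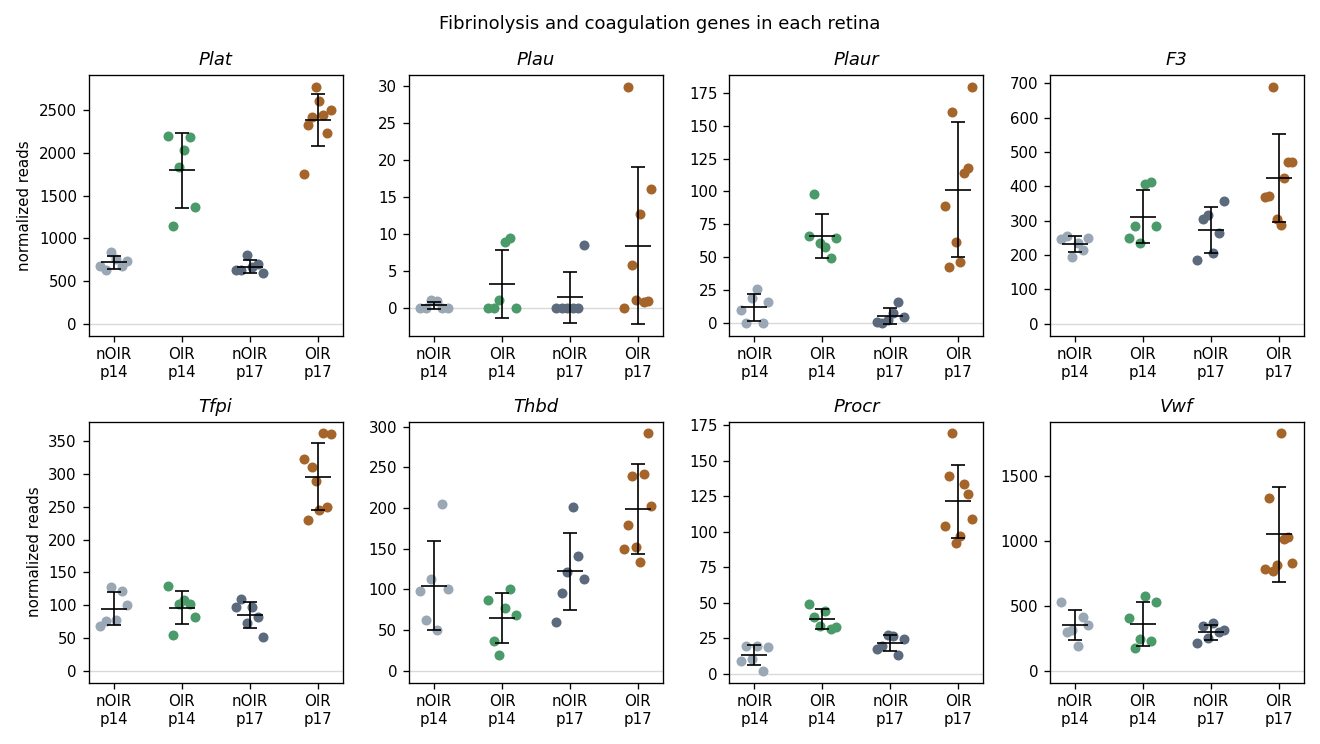
Normalized reads (linear axes, 1 per gene) of the 8 genes in each retina, by group (n = 8 in OIR p17 and n = 6 in every other group). Points are mice, and the bar and whiskers are the mean ± SD. OIR p17 mice lie above all nOIR p17 mice for Plat, Plaur, Tfpi, Procr and Vwf.

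The first comparison asked what differed in the hypoxic retina, OIR against nOIR at p14. Of the 8 genes, 3 were upregulated in OIR mice (Plaur, Plat and Procr, adjusted p under 0.05 with limma) and 0 were downregulated, where 3.18% of all genes tested were called higher and 2.91% lower. edgeR and DESeq2 on the recovered reads gave the same counts, and at an unadjusted limma p under 0.05 Thbd alone was lower. For these 3 genes every OIR mouse lay above every control, a separation upward that 1.91% of genes had. The median log2 fold change was 0.39 over the 7 genes other than Plau (0.68 with it) and 0.02 over all genes.

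The second comparison asked the same of the retina with RNV at p17. There 6 of the 8 genes were upregulated, namely the former 3 together with F3, Tfpi and Vwf, and 0 were downregulated, where 7.39% of all genes were called higher and 5.12% lower. edgeR and DESeq2 again gave the same counts, and 0 genes were lower at an unadjusted limma p under 0.05. All OIR mice lay above all controls for 5 of them (all but F3), as for 3.9% of genes. The median log2 fold change was 1.81 over the 7 genes other than Plau (1.80 with it), against -0.02 over all genes. Under the threshold of the study, which also asks for a log2 fold change above 2, Plaur remained at p14 and Plaur and Procr at p17, where 0.744% and 1.9% of all genes pass upward. None of the 8 passed it for the difference of effects or between the ages in OIR mice, where 0.383% and 0.45% of genes did.

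**Figure D2:**
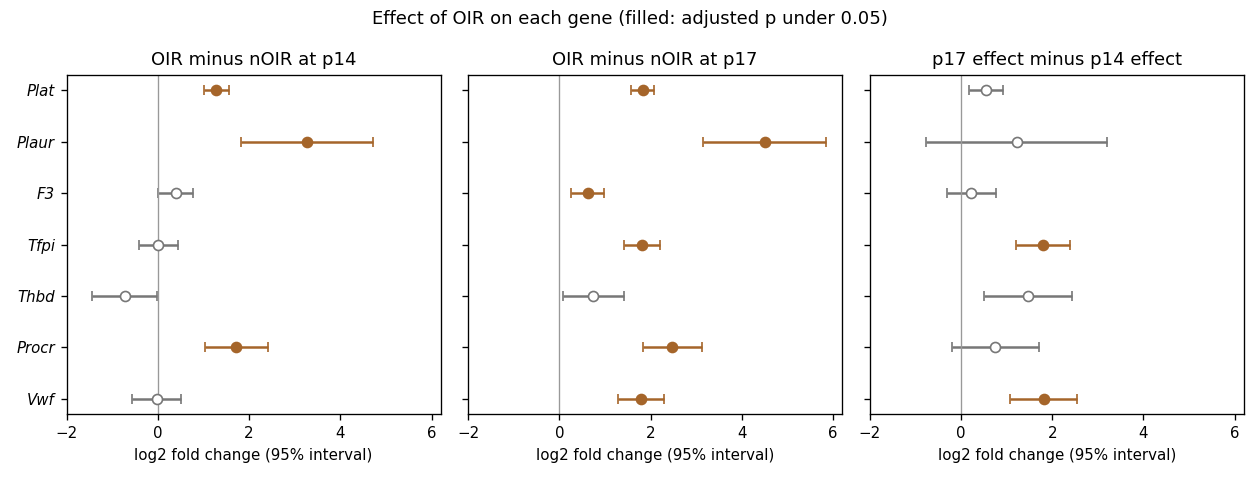
Log2 fold changes of the 7 genes other than Plau (points) with 95% intervals (whiskers) from limma, for OIR minus nOIR at p14, at p17, and for the difference of both effects. Filled points had an adjusted p under 0.05: 3 genes at p14, 6 at p17, and Tfpi and Vwf for the difference.

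Among the plasminogen activators, Plat rose at both ages. Normalized reads ran from 634 over a median of 707 to 846 in nOIR p14 mice, and from 1146 over 1932 to 2202 in OIR p14 mice. At p17 they ran from 596 over 645 to 801 in controls and from 1750 over 2431 to 2774 in OIR mice. The groups were apart at each age, and the 2 control groups covered nearly the same range. The log2 fold change was 1.28 (SE 0.13, adjusted p = 1.60e-07) at p14 and 1.83 (SE 0.12, adjusted p = 7.57e-12) at p17, a 2.49-fold and a 3.56-fold ratio of mean normalized reads. The exact permutation test over mice gave the smallest p these group sizes allow, 0.00216 at p14 and 0.000666 at p17. The effect at p17 exceeded that at p14 by 0.55 (SE 0.18), which did not pass (adjusted p = 0.168).

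Plau, the other activator, was close to the limit of detection. It was at 0 in 4 of 6 control and 3 of 6 OIR mice at p14, and in 5 of 6 control and 1 of 8 OIR mice at p17, and a count of 0 allows up to 3 reads, or between 2.47 and 4.67 normalized reads depending on the mouse. In the same order, the highest mouse of each group stood at 1.01, 9.42, 8.50 and 30.0 normalized reads, and the ranges overlapped at both ages. Limma did not call Plau at either age, but with so many controls at 0 its fitted values of 0.96 at p14 and 1.76 at p17 were set by the treatment of low reads: they became 1.63 and 3.74 with a pseudocount of 0.1 and 2.94 and 2.53 with edgeR. They are neither folds nor bounds, and no difference is read from them. The same holds without the nOIR p17 mouse S6, when all 5 remaining controls were at 0 and Plau was called at p17 (fitted value 2.30).

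Plaur, the urokinase receptor, had the largest limma log2 fold change at both ages of the 7 genes other than Plau. Controls held few reads, from 0 over a median of 12.7 to 25.4 normalized reads at p14 and from 0 over 3.09 to 15.8 at p17. OIR mice held 49.2 over 62.4 to 97.7 at p14 and 42.7 over 101.3 to 179.8 at p17. The groups did not overlap at either age, while the OIR p17 mice spread over a wider range than the OIR p14 mice. The log2 fold change was 3.27 (SE 0.71, adjusted p = 0.0033) at p14 and 4.50 (SE 0.66, adjusted p = 8.83e-06) at p17, with the smallest exact permutation p allowed at each age. Since some controls were at 0, the size depended on the treatment of low reads: a pseudocount of 0.1 gave 4.41 and 5.36, and edgeR gave 2.48 at p14. The ratio of mean normalized reads was 5.64 at p14 and 19.9 at p17. The effects at both ages could not be told apart (difference 1.22, 95% interval -0.76 to 3.20, adjusted p = 0.708).

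F3, the initiator of coagulation, changed least among the genes called. Normalized reads ran from 195 over 241 to 256 in nOIR p14 and from 234 over 284 to 413 in OIR p14 mice, and 4 of the 6 OIR mice lay above all controls. At p17 they ran from 186 over 285 to 357 in controls and from 287 over 399 to 690 in OIR mice, with 6 of 8 OIR mice above all controls. The p14 value of 0.39 (95% interval 0.00 to 0.78) did not pass over all genes (adjusted p = 0.291), with an exact permutation p of 0.026 for the gene alone (0.0378 adjusted over the 16 exact tests of the 8 genes at both ages). With the nOIR p14 mouse S4 included, this exact permutation p was 0.0664. The p17 value of 0.62 (SE 0.18) passed with an adjusted p of 0.0161, and the exact permutation p was 0.012 (0.0213 over the 16 tests). This call was lost with the mouse number as a replicate block (0.56, adjusted p = 0.0722), and without the nOIR p17 mouse S1 (0.52, adjusted p = 0.0623) or S4 (0.55, adjusted p = 0.0552), which were the 2 lowest controls.

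Tfpi, the inhibitor of the F3 and factor VII complex, was flat at p14 and rose at p17. Normalized reads ran from 67.5 over 88.2 to 127 in nOIR p14 and from 53.7 over 102 to 129 in OIR p14 mice, ranges that almost coincide. At p17 controls ran from 52.1 over 89.5 to 109, and OIR mice from 230 over 300.1 to 362. The lowest OIR p17 mouse was thus above every mouse of the other 3 groups. The log2 fold change was 0.01 (95% interval -0.42 to 0.44, adjusted p = 0.99) at p14 and 1.81 (SE 0.20, adjusted p = 5.25e-08) at p17. The difference of the effects passed the test at 1.80 (SE 0.29, adjusted p = 0.00032).

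Thbd, the thrombin receptor of the protein C pathway, did not pass at either age against controls. Normalized reads ran from 49.9 over 99.1 to 205 in controls and from 19.2 over 72.8 to 100.5 in OIR mice at p14. At p17 they ran from 60.4 over 117 to 202 in controls and from 134 over 191 to 292 in OIR mice. The groups overlapped at both ages, with 4 of 8 OIR p17 mice above all controls. The values were -0.73 (95% interval -1.44 to -0.02, adjusted p = 0.277) at p14 and 0.74 (0.08 to 1.41, adjusted p = 0.15) at p17. With 1 mouse left out, the p14 value lay between -0.91 and -0.43. The exact permutation p for the gene alone was 0.156 at p14 and 0.0147 at p17 (0.192 and 0.0234 over the 16 tests). The difference of the effects, 1.47 (SE 0.47), did not pass (adjusted p = 0.147). Within OIR mice, all 8 p17 mice lay above all 6 p14 mice, as given below for the ages.

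Procr, the endothelial receptor of protein C, rose at both ages. Normalized reads ran from 2.04 over 14.5 to 19.3 in nOIR p14 and from 31.4 over 36.5 to 48.9 in OIR p14 mice. At p17 they ran from 12.99 over 21.9 to 26.9 in controls and from 92.3 over 118 to 169 in OIR mice. No OIR mouse overlapped a control of its age. The log2 fold change was 1.72 (SE 0.34, adjusted p = 0.00124) at p14 and 2.48 (SE 0.32, adjusted p = 8.57e-07) at p17, with the smallest exact permutation p allowed at each age. The difference of the effects was 0.76 (SE 0.46, adjusted p = 0.598). With 1 mouse left out, it lay between 0.60 and 1.15 and did not pass (limma, adjusted p at least 0.116).

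Vwf followed the course of Tfpi. Normalized reads ran from 191 over 331 to 532 in nOIR p14 and from 178 over 326 to 577 in OIR p14 mice, with full overlap. At p17 they ran from 214 over 304 to 365 in controls and from 770 over 925 to 1830 in OIR mice, and the lowest OIR p17 mouse was above every mouse of the other 3 groups. The log2 fold change was -0.03 (95% interval -0.56 to 0.51, adjusted p = 0.979) at p14 and 1.78 (SE 0.25, adjusted p = 3.08e-06) at p17. The difference of the effects was 1.81 (SE 0.36, adjusted p = 0.00388). Platelets also carry Vwf protein and some of its RNA: of 6 platelet markers, 5 were tested, Pf4 was called higher at p17, and Gp9, Gp1ba, Itga2b and Treml1 were not. Their sum ran from 77.4 to 107 normalized reads in controls and 114 to 216 in OIR mice at p14, and from 56.2 to 120 and 133 to 255 at p17, and Ppbp was at 0 in all OIR p14 mice. Without Pf4 the sums overlapped at both ages (65.9 to 107 against 99.8 to 179 at p14, 56.2 to 119 against 93.3 to 186 at p17). Red cell markers were higher in the same p17 mice, and the part of blood in the Vwf value was not tested.

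The difference of effects was therefore called for 2 of the 8 genes, where 1.43% of all genes were called in that direction and 0.147% in the other. It was also called higher for 7 of 8 endothelial, 6 of 6 mural, 2 of 7 microglia and macrophage and 2 of 5 red cell markers. None of these markers was called lower, and their part in the difference was not tested. Both comparisons have their own controls, so the difference was also read within each condition. From p14 to p17, 0 of the 8 genes were called in nOIR mice by limma, where 0.317% of all genes were called in either direction. There Procr alone had an unadjusted limma p under 0.05 (0.87, p = 0.0155, adjusted p = 0.461, exact permutation p = 0.0693). With 1 mouse left out, this Procr value lay between 0.48 and 1.02. edgeR and DESeq2 also called 0. In OIR mice 5 of the 8 rose and 0 fell, where 4.11% of genes rose and 1.81% fell. These were Thbd (1.75, adjusted p = 0.000717), Tfpi (1.64, adjusted p = 1.79e-06), Procr (1.63, adjusted p = 0.00113), Vwf (1.62, adjusted p = 5.61e-05) and Plat (0.44, adjusted p = 0.0317). All 8 OIR p17 mice lay above all 6 OIR p14 mice for the first 4 of these, as for 1.41% of genes. Between the same OIR groups, 7 of 8 endothelial and 6 of 6 mural markers were called higher at p17. So were 3 of 7 microglia and macrophage and 5 of 5 red cell markers. None of these markers was called lower, and their part in the values was not tested. The Plat call was lost in a fit of the compared groups alone (adjusted p = 0.125), with lens Cryaa as a covariate (0.092) and without any one of the OIR p14 mice S2 and S6 or the OIR p17 mice S4, S5, S6 and S8 (0.0528 to 0.116).

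The mice that carried the highest values differed from gene to gene. In OIR p17 retinas, S8 was highest for Plaur, S5 for Vwf, S6 for Tfpi, S7 for Thbd, S4 for Plat, S2 for Plau, and S3 for both F3 and Procr. Across the reads of all genes, S1, S2 and S5 were more alike than they were with S6, S7 and S8. Chi-square per degree of freedom, lower for mice more alike, was 20.3 to 23.9 against 59.5 to 139. S1, S2 and S5 lay below S6, S7 and S8 for Plaur, Thbd and F3, with overlap for the other genes. These mice may thus not be independent, and the cause was not tested. In OIR p14 retinas, S1 was highest for Plat, Tfpi and Procr, and S5 for Plau, Thbd and F3. S2 of that group was highest for Plaur and lowest for Plat, Tfpi and Vwf, and shared a 0 for Plau with S1 and S6.

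Because endothelial markers rose at p17, each gene was also set against the mean log2 level of the 8 endothelial markers in the same mouse, a comparison chosen after the values were seen. That mean changed by -0.21 at p14 (exact permutation p = 0.123) and by 1.32 at p17, where all OIR mice lay above all controls (exact permutation p = 0.000666). At p14 the level relative to these markers was higher in every OIR mouse than in every control for Plaur (3.48), Procr (1.93), Plat (1.49) and F3 (0.60), each with an exact permutation p of 0.00216. Tfpi (0.22, p = 0.266), Vwf (0.18, p = 0.552) and Thbd (-0.52, p = 0.24) did not differ beyond the spread by the same exact test. The single endothelial markers changed by -0.83 (Cldn5) to 0.40 (Pecam1) at p14. As measured, F3 (0.39) lay within that range, and Plat, Procr and Plaur lay above it. Plau is left out here, since its relative value in a mouse at 0 holds only the level of the markers. Plaur was at 0 in 2 of 6 controls at p14, so the size of its 3.48 also depends on the treatment of low reads.

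At p17 only Plaur (3.18) and Procr (1.16) among the other 7 genes stayed apart relative to the endothelial markers, with an exact permutation p of 0.000666. The 3.18 of Plaur is not an exact size, since 1 of 6 controls was at 0. Plat was higher by 0.51 with overlap (exact permutation p = 0.00133). F3 turned to -0.69 (exact permutation p = 0.00466, 0.00932 over the 16 tests), so that it rose less than the mean of these markers did. Tfpi kept 0.49 (exact permutation p = 0.02, 0.0355 over the 16 tests) and Vwf 0.47 (p = 0.042, 0.0671 over the 16 tests). Thbd was at -0.57 (exact permutation p = 0.0513). The 16 tests count those of Plau. The single endothelial markers changed by 0.20 (Kdr) to 2.35 (Erg) at p17. As measured, Plat (1.83), Tfpi (1.81), Vwf (1.78), Thbd (0.74) and F3 (0.62) lay within that range, and Plaur and Procr lay above it.

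**Figure D3:**
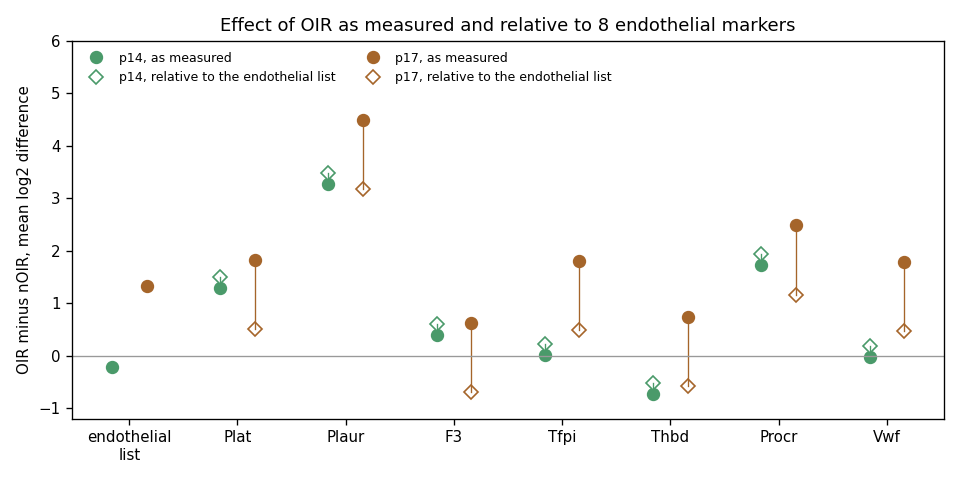
Mean log2 difference OIR minus nOIR at p14 (green) and p17 (brown), as measured (filled circles) and relative to the mean log2 level of 8 endothelial markers in the same mouse (open diamonds), joined by a line for each of the 7 genes other than Plau. The endothelial list itself stands at -0.21 and 1.32, and Plaur and Procr keep 3.18 and 1.16 relative to it at p17. Some controls were at 0 for Plaur, so the size of its values depends on the treatment of low reads.

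The genes most like each gene called against controls were sought by the root mean square difference of centred log2 values over 26 mice, among genes whose mean reached 10 normalized reads. Plat was closest to Ecm1 (0.248 log2 units), Stat3 (0.254) and Ctsc (0.255), and Tfpi to Adgrl4 (0.318), Anxa3 (0.341) and Cavin1 (0.342). Vwf was closest to the mural marker Pdgfrb (0.354), followed by Itga1 (0.384) and again Adgrl4 (0.419). F3 was closest to Ccnd3 (0.253), Tpm1 (0.256) and Zyx (0.260). Procr was closest to Angpt2 (0.666), Fblim1 (0.676) and Il13ra1 (0.697), and Plaur to Car6 (1.03), Aurkb (1.13) and Ndufa4l2 (1.13). All values share the same 26 libraries, and no test was made.

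The partners of the 8 genes were read from 6 lists of 62 further genes of coagulation and fibrinolysis, of which 56 were tested. At p14, 7 were called higher and 2 lower (6.09% of all genes were called in either direction), and at p17 17 higher and 3 lower (12.5%). The p14 calls were 3 higher and 2 lower without the nOIR p14 mouse S6, and 4 higher and 3 lower when only the compared groups were fitted. The lists were named with earlier results of these data known, so their counts are a description.

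Of 7 plasminogen and plasminogen-binding genes tested, 2 rose and 1 fell at p14, and 3 rose at p17 (median 0.11 and 0.19 without Plg). Anxa2, which binds plasminogen and Plat at the cell surface, went from a mean of 649 ± 102 to 2068 ± 673 normalized reads at p14 and from 579 ± 86.8 to 3414 ± 830 at p17 (log2 1.62, adjusted p = 4.38e-07, and 2.54, adjusted p = 4.36e-12). Its partner S100a10 rose by 0.73 (adjusted p = 0.0292) and 0.76 (adjusted p = 0.00662), and Eno1, a plasminogen-binding glycolytic enzyme, by 0.37 at p17 (adjusted p = 0.0134). Vtn, a matrix protein that binds Plaur, fell by 0.47 at p14 (adjusted p = 0.0141). Plasminogen itself (Plg) had at most 2.30 ± 4.22 normalized reads in a group and passed the filter only through OIR mice (mean of 0.707 over the 12 controls), so no difference is read for it, nor for Serpinb2, F12 and Selp. These 4 are among the genes counted as tested, and none was called at either age. Lrp1, which clears activators bound to inhibitor, stood at 0.01 and -0.02.

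Of 8 inhibitors of plasminogen activation and plasmin tested, 2 rose at p14, and 4 rose and 1 fell at p17 (median 0.03 and 1.29 without Serpinb2). The 1.29 is the fitted value of Serpinf2 (limma, adjusted p = 0.259), which was at 0 in 5 of 6 nOIR p17 mice. That median is thus not read as a fold. Serpine2, protease nexin-1, stood at 0.03 at p14 and rose by 1.63 at p17 (adjusted p = 1.34e-11), and the difference of 1.61 passed (adjusted p = 5.66e-07). A2m, a broad protease inhibitor, rose by 3.43 and 2.99, and Serpinb6a by 0.47 and 0.81. Serpini1, the neuronal inhibitor of Plat, fell by 0.46 at p17 (adjusted p = 0.00186), with all OIR mice below all controls. Protein and plasmin activity were not measured.

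Of 15 coagulation factors tested, 0 passed at p14 by limma, edgeR or DESeq2 (F5 and F11 were lower at an unadjusted limma p under 0.05), and 1 rose and 1 fell at p17 (median -0.04 and 0.31 without F12). F13a1, the fibrin crosslinking subunit that macrophages also make, went from 5.46 ± 4.87 to 69.0 ± 28.3 normalized reads at p17 (3.92, adjusted p = 2.02e-05), and F5 fell by 2.01 (adjusted p = 0.0415). The factors that meet F3 and Tfpi were low, with F7 at most 7.20 ± 5.10 and F10 at most 7.70 ± 8.71 normalized reads in a group, and neither passed. F2 (prothrombin) stood at -0.85 and -0.64 and F8, carried by Vwf, at 0.39 and 0.05, none of which passed.

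Of 12 anticoagulant genes tested, 1 rose and 1 fell at p14, and 5 rose and 1 fell at p17 (median 0.31 and 0.40). Pros1, the cofactor of protein C, rose by 1.53 (adjusted p = 0.000406) and 1.36 (adjusted p = 0.000243), while protein C itself (Proc) was at 0 in all p17 mice and below the filter. Tfpi2, a matrix inhibitor related to Tfpi, went from 4.18 ± 5.15 to 40.3 ± 19.2 normalized reads at p17 (3.40, adjusted p = 0.000305). Anxa5, Entpd1 and Nos3 rose by 0.78, 0.97 and 0.47 at p17, Gas6 fell by 0.37 at p14, and Serpind1 fell by 0.95 at p17 (adjusted p = 0.0471). Adamts13, which cuts Vwf, had at most 7.86 ± 5.33 normalized reads and did not pass.

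Of 4 thrombin receptors tested, F2r alone passed, at 0.43 (adjusted p = 0.0197) and 0.36 (adjusted p = 0.0229). Of 10 platelet receptors and Vwf partners tested, 1 rose at p14 and 3 at p17. Itgb3, an integrin subunit of platelets and of growing endothelium, rose by 2.15 (adjusted p = 0.0235) and 2.14 (adjusted p = 0.00726). Pf4, a chemokine of platelets and macrophages, went from 1.48 ± 2.16 to 60.8 ± 24.3 normalized reads at p17 (4.87, adjusted p = 1.42e-06). Pf4 and F13a1 were each at 0 in 2 of 6 nOIR p17 mice, and Tfpi2 in 1 of 6. The size of their p17 values thus depends on the treatment of low reads. So does that of Itgb3 at p14, where 1 of 6 controls was at 0. Mmrn1 was called higher at p17 by limma (adjusted p = 0.0465). It was at 0 in 5 of 6 nOIR p17 and 2 of 8 OIR p17 mice, so its fitted value of 2.54 is not read as a fold. Gp1ba, the platelet receptor of Vwf, stood at 0.76 and 0.40 and did not pass. The summed microglia and macrophage markers given above were higher in all OIR p17 mice than in all nOIR p17 mice, and their part in these values was not tested.

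**Figure D4:**
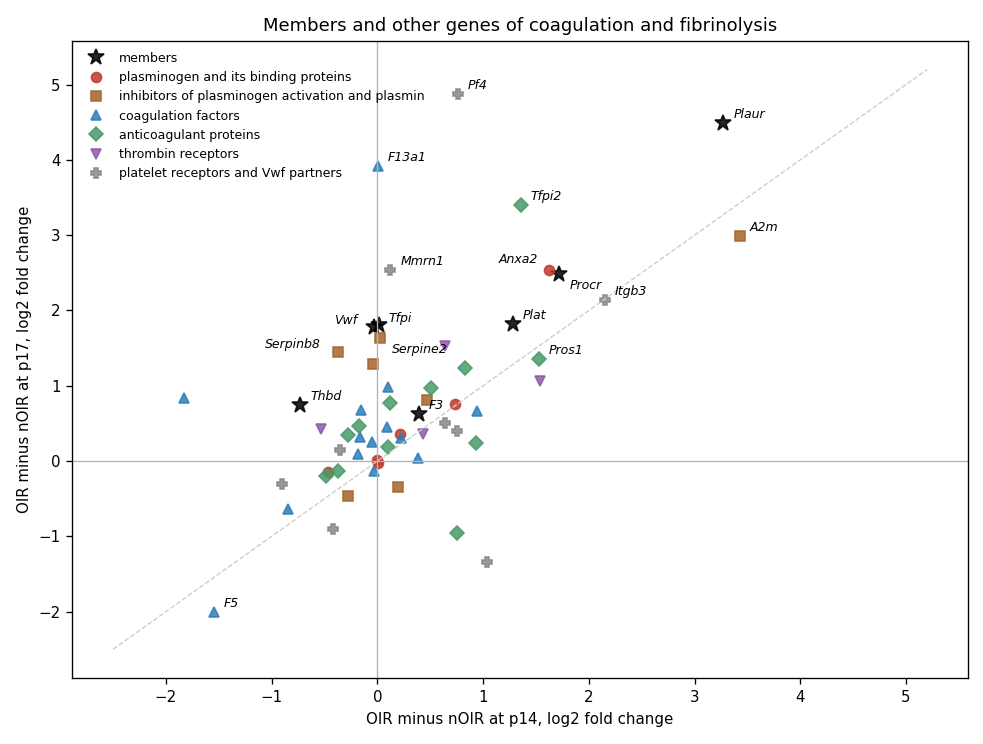
Log2 fold changes of OIR against nOIR at p14 (x axis) and p17 (y axis) for the 7 genes other than Plau (stars) and 52 further genes of coagulation and fibrinolysis in 6 lists, on linear axes with the line of equal change dashed. Genes that passed the filter only through OIR mice are left out. Labels name the 7 genes and those called at p17 with a change beyond 1. Plaur and A2m lie far out on both axes, and Tfpi, Vwf, Serpine2 and F13a1 lie near 0 on the x axis.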

How the data were processed

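Reads of 27 mouse retina libraries (C57BL/6J in the methods of the study) were mapped by the authors with STAR 2.7.8a. The reference was the mouse genome with Gencode M28 annotation. Reads were merged over lanes and counted per gene with featureCounts 2.0.1. The deposited signal is normalized reads, the count of a gene divided by 1 DESeq2 1.34 size factor per mouse. The group means, log2 fold changes and adjusted p-values that the authors deposited were not used. The libraries were single-read without strand or molecular identifiers, so floors for a count of 0 cover counting error only, while the 95% intervals are those of limma, from the spread between mice. None of the 8 genes shares exon bases with another gene in Gencode M21.

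Whole reads were recovered from 100% of values (tolerance 0.01 reads). No pair of mice was a copy. Limma 3.58.1 (lmFit, eBayes with trend, R 4.3.3) was fitted to log2(normalized reads + 1) of 4 groups in 1 fit for genes with a mean of at least 1, so fold changes of low genes depend on the pseudocount. P-values were adjusted by Benjamini-Hochberg over 27137 genes and called under 0.05. Single values had two-sided exact permutation tests (scipy 1.17.1). P-values measure the spread between mice. Named genes were the 8 genes, their direct partners, and up to 3 genes per list and age with the smallest adjusted p and a mean of at least 10. F11, F12, Serpinb2, Serpinf2, Selp, Entpd1, Nos3, Serpind1, Mmrn1 and the single marker genes were named outside this rule, after their values were seen. The genes and lists were chosen with earlier results of these data known. A further gene of the lists is not reported here.

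Alternatives were another pseudocount (0.1), filter, threshold, normalization, covariate (Cryaa, Xist), the mouse S4, the compared groups only, a replicate block, edgeR 4.0.16 and DESeq2 1.42.0 on recovered reads, and leaving out each mouse.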

Additional observations from a re-analysis of the deposited data

Results flagged for a closer look

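In the nOIR p17 group, mouse S6 stood apart for Plau with 8.50 normalized reads where the other 5 mice were at 0, so that any read in 1 mouse would have set it apart. It was the only mouse that stood apart from its group among 32 groups of mice looked at (8 genes in 4 groups), and chance alone sets about 1 in 20 apart.

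For Tfpi, the effect of OIR at p17 exceeded that at p14 by 1.80 on the log2 scale (SE 0.29, limma, adjusted p = 0.00032). For Vwf it did so by 1.81 (SE 0.36, adjusted p = 0.00388). In both genes all 8 OIR p17 mice lay above all nOIR p17 mice, whereas the p14 groups overlapped. The mean log2 level of the endothelial markers changed by 1.32 at p17 and by -0.21 at p14.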

How the results depend on the processing

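Besides leaving out each of 26 mice in turn, 14 other settings were tried. Of 1585 values of the 8 genes, 1533 kept their direction and their side of the threshold, 26 no longer passed, 1 newly passed and 25 changed sign. Under the threshold of the study, the number of the 8 genes called fell to 1 at p14, 2 at p17, 0 for the difference of effects and 0 for OIR mice between ages, and that of the further pathway genes to 2 at p14 (from 9) and 8 at p17 (from 20). An adjusted p under 0.01 left 3 pathway genes at p14. With 1 mouse left out, the 8 genes gave 3 calls at p14 each time, 5 to 7 at p17 (7 with Plau, without the nOIR p17 mouse S6, when the other controls were at 0), 2 for the difference, 0 for nOIR mice and 4 to 5 for OIR mice between ages, and the pathway genes 5 to 10 at p14 (5 without the nOIR p14 mouse S6) and 17 to 20 at p17.

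The changes of sign were in values near 0 or in Plau, whose fitted values are set by the treatment of low reads. Plau went to -0.42 (edgeR) and -0.65 (DESeq2) for the difference of effects, and to -0.056 (pseudocount of 0.1) and -0.13 (Cryaa) for nOIR mice between ages, with -0.32 to 0.36 when 1 mouse was left out. Tfpi at p14 went to -0.044 with mouse S4 (exact permutation p = 0.831), -0.024 with the replicate block, -0.080 with quantile normalization and -0.028 with Cryaa, and lay between -0.081 and 0.17 when 1 mouse was left out. Vwf at p14 went to 0.015 (same total per mouse), 0.0073 (Xist), 0.053 (edgeR) and 0.045 (DESeq2), and lay between -0.19 and 0.15 when 1 mouse was left out. The causes were not tested.

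Mice of the same number showed no clear pairing (correlations from -0.11 to 0.14). Such correlations cannot show whether these mice shared a litter or a step of handling. The replicate block took the F3 call at p17 (0.56, adjusted p = 0.0722) and no other call of the 8 genes, while over all genes it gave 255 upward calls for the difference of effects, against 389 without it. Rescaling to the same total raised the share of higher among called genes from 52.2% to 62.6% at p14 and from 59.1% to 71.4% at p17, and lowered it from an even split to 33.1% for nOIR mice between ages. At p17 edgeR called 2050 genes higher and 1190 lower, and DESeq2 2265 and 1450. Plau and the control level of Plaur rested on few reads, and the effect of depth on them was not tested.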
